A study of Mus musculus with 10 samples.

Results

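The oxidative phosphorylation genes examined here encode the nuclear part of the mitochondrial respiratory chain and of the ATP synthase. They were chosen by mouse gene symbol alone, as the protein-coding genes whose symbols begin with Nduf, Sdha to Sdhd with the Sdhaf factors, Uqcr, Cox4 to Cox8, Cox10 to Cox19 or Atp5, together with Cyc1, Cycs and Cyct. This rule found 111 of 21774 protein-coding genes of the mouse, taken from RefSeq for GRCm38.p6, on which mm10 is based. A further 19 non-coding or pseudogene loci with matching symbols were left out. The 111 genes comprised 49 for complex I, 8 for complex II, 9 for complex III, 2 for cytochrome c, 26 for complex IV and 17 for complex V, and 20 of them encode assembly factors.

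The study mapped ARID2, the subunit specific to the PBAF chromatin remodeller, by CUT&RUN, in which a nuclease tethered to an antibody releases the DNA under its target. Cells came from testes of wild-type CD1 mice in which spermatogenesis had been synchronized. All animals received WIN18,446, an inhibitor of retinoic acid (RA) synthesis, from P1 to P10 (postnatal days) and a single injection of RA at P11. The groups differed in age only, P28 or P28.5, which is 17 or 17.5 days after RA. Cells were released with collagenase and trypsin and passed through a sieve, and the labels describe them as enriched for pachytene or diplotene and for metaphase spermatocytes. Each age had 2 ARID2 libraries, 2 BRG1 libraries made with different antibodies to the PBAF ATPase, and 1 library without primary antibody, 10 libraries in all. The files analysed here for the respiratory genes were 2 lists of transcription start sites (TSSs), 1 per age, that the authors placed in the ARID2-enriched cluster-1 (Cl-1). Each row gave a position and a gene symbol. The P28 list had 11553 rows at 7144 positions, and the P28.5 list had 8514 rows at 5193 positions.

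Because the replicates were averaged before clustering, a TSS was either in the list or not, and the lists carry no signal, depth or spread between replicates. Differences between the ages therefore could not be tested from the lists. Signal tracks and peaks of single libraries were not analysed here. The lists hold no levels, so the labelled cell type could not be checked against markers. In such mixed cells, binding in fewer cells and weaker binding in each cell cannot be told apart. The BRG1 libraries were not analysed here.

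Oxidative phosphorylation passes electrons from NADH through complex I, or from succinate through complex II, to ubiquinone, and from there through complex III and cytochrome c to complex IV, where oxygen is reduced. Complexes I, III and IV pump protons across the inner membrane, and complex V uses the returning protons to make ATP. The catalytic centre of complex IV and several membrane subunits of the other proton pumps are encoded by mitochondrial DNA, which the symbol rule does not cover. Male germ cells use some subunits of their own, such as the testis cytochrome c Cyct, and pachytene spermatocytes are known for relying on mitochondrial respiration.

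Some promoters of genes listed at both ages are shown first, since the positions below are counted from such start sites. A listed position at a start site does not tell how strong the enrichment of ARID2 is. Of the genes listed at both ages with a position exactly at an annotated 5′ end, 5 are printed, and Atp5j was added after its values were seen, because positions at its start sites are shared with Gabpa. Each window is from RefSeq on GRCm38.p6, runs from 250 bases before the start site to 50 bases from it onward, and has the start site at base 251. Sequences are written 5′ to 3′ on the strand of the gene. Capitals mark matches on either strand to 4 of the 5 motifs searched, the NRF1 core GCGCATGC, the ETS core CCGGAAG, the YY1 motif AAGATGGC and the GC box GGGCGG. The windows are chr10:128083057-128083356 on the plus strand for Atp5b, chr17:56717512-56717811 on the plus strand for Ndufa11, chr3:32736813-32737112 on the plus strand for Ndufb5, chr4:140961021-140961320 on the plus strand for Sdhb, chr11:90637934-90638233 on the plus strand for Cox11 and chr16:84834927-84835226 on the minus strand for Atp5j.
Atp5b: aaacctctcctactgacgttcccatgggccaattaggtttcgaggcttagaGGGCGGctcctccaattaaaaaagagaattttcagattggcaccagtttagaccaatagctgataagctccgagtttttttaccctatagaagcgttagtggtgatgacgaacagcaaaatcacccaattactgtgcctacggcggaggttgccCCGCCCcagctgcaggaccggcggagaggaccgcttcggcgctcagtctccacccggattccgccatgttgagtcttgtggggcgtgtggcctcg
Ndufa11: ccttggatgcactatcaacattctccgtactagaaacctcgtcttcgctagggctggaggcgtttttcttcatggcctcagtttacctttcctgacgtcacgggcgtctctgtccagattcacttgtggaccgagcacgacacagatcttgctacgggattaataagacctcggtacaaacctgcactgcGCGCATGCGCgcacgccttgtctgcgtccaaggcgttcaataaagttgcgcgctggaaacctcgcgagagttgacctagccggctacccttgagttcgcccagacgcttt
Ndufb5: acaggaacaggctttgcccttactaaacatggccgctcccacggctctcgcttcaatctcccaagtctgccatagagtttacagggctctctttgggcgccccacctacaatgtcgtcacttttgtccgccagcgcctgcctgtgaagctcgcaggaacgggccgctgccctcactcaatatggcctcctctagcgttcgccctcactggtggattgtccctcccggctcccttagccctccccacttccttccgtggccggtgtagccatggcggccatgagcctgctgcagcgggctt
Sdhb: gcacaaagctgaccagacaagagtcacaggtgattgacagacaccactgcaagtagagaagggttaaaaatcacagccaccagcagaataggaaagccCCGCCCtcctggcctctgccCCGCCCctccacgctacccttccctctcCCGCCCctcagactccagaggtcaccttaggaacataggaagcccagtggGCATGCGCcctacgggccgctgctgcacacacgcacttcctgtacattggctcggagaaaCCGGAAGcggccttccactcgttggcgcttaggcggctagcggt
Cox11: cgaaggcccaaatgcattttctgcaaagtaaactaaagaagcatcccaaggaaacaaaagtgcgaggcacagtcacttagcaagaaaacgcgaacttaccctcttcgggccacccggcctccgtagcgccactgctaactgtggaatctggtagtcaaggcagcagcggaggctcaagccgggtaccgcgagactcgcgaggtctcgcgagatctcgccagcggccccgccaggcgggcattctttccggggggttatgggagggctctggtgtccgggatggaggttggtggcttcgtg
Atp5j: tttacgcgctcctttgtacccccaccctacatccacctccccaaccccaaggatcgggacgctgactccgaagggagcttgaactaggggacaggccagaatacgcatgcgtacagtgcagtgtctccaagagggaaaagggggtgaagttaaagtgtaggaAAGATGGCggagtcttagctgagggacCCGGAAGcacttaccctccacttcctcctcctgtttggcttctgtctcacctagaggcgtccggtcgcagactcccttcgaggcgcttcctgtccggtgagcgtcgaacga

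Position 128083307 was listed for Atp5b at both ages, and it is the start site of the printed window. In this window GC boxes begin 199 and 45 bp before the start. Atp5b encodes the beta subunit, which holds the catalytic sites of ATP synthase. The Ndufa11 window has NRF1 core matches at 60 and 58 bp before the start, 1 on each strand of the same palindromic run. The Sdhb window has GC boxes at 152, 132 and 104 bp before the start, an NRF1 core at 54 bp before it and an ETS core 6 bp after it. Neither the Ndufb5 nor the Cox11 window holds any of the motifs searched. Atp5j has a YY1 motif 88 bp and an ETS core 61 bp before the start.

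By name, the P28 list held 30 of the 111 genes (27.0%), where the share of all protein-coding genes was 16.8%. The 95% Wilson interval ran from 19.6% to 36.0%, and such intervals follow other shares in parentheses. At P28.5, 20 were listed (18%, 12.0% to 26.2%), compared with 11.6% of all genes. Both lists held 14 of them (12.6%, 7.66% to 20.1%), compared with 8.48% of all genes. A further 16 were named at P28 only and 6 at P28.5 only, and 75 carried no row at either age. These intervals cover counting error only, and genes are not replicates of the experiment. The bar plot of the complexes gives the counts.

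The 111 promoters were richer in CpG than those of most genes, and the background has to be read with that. Observed CpG over expected CpG, in the 500 bp on each side of the 5′ end, had a median of 0.727 in the respiratory genes and 0.516 in all genes. Of the 111, 80 (72.1%) fell in the upper 2 of 5 quintiles, which hold 40.0% of all genes. Within the highest quintile the share listed by name was 31.0% of 29 respiratory genes and 28.8% of all genes at P28, and 24.1% and 27.0% at P28.5. In the next quintile it was 35.3% of 51 respiratory genes and 24.9% of all genes at P28, and 21.6% and 19.1% at P28.5. In the highest quintile the 2 shares were thus close at P28 and the respiratory genes had the lower one at P28.5, while in the next the respiratory genes had the higher share at both ages.

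**Figure D1:**
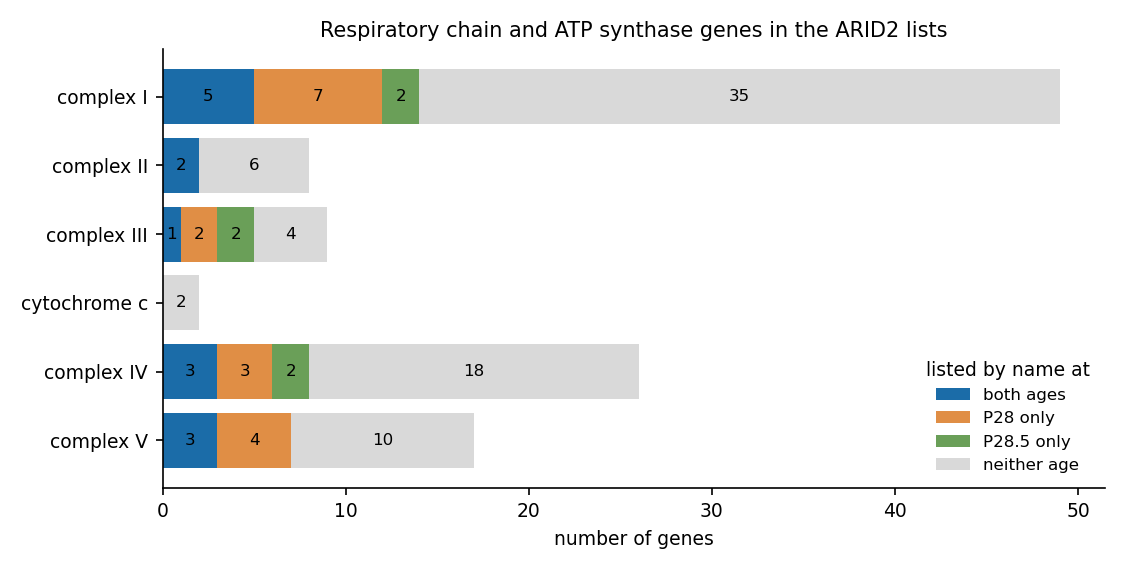
Number of respiratory chain and ATP synthase genes (x axis) per complex that carried a row in Cl-1 at both ages, at P28 only, at P28.5 only or at neither age. Complex V had 7 of 17 genes listed at P28 and 3 of 17 at P28.5, while complexes II and III had as many at each age.

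Complex I, NADH dehydrogenase, had 12 of 49 genes listed at P28 (24.5%, 14.6% to 38.1%) and 7 at P28.5 (14.3%, 7.10% to 26.7%). The 41 subunits and the 8 assembly factors differed in their shares. Of the subunits, 8 had a row at P28 (19.5%) and 3 did at P28.5 (7.32%), the latter under the 11.6% of all genes. Ndufa11, Ndufb5 and Ndufb9, the 3 listed at P28.5, lie on the plus strand, where 20.4% of all genes were listed by name. On the minus strand it was 2.86%. A listed position of any name lay within 2000 bp of a 5′ end in 14.6% of the subunits at P28.5, against 14.8% of all genes. The subunits and the assembly factors were not matched for strand. Of the assembly factors, 4 were listed at each age (50.0%, 21.5% to 78.5%). With 8 genes this interval is wide, and the difference was not tested.

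The subunits listed at both ages were Ndufa11 and Ndufb5, both accessory subunits of the membrane arm. Ndufa11 had 1 row, at its 5′ end 56717762 on chromosome 17. Ndufb5 had 2 positions on chromosome 3, 32737063 at an annotated 5′ end and 32737107, 44 bp inside. Both genes had the same positions at the 2 ages.

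At P28 only, the core subunit Ndufs7, which holds an iron-sulfur cluster next to the quinone site, was listed at 80249452 on chromosome 10, 3 bp from a 5′ end. Ndufb3, an accessory subunit of the membrane arm, was listed at its 5′ end, 58586397 on chromosome 1. At P28.5 only, Ndufb9 of the same arm was listed at 58933810 on chromosome 15, 9 bp from its 5′ end. The other subunits listed at P28 only were Ndufa2, Ndufab1, Ndufb2 and Ndufb4, and none of their rows lay within 2000 bp of their own 5′ ends.

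Of the other core subunits, Ndufs1 and Ndufs3 had no row, but positions named for a neighbouring gene lay close to their 5′ ends. Ndufs8, Ndufv1 and Ndufv2, which also belong to the electron path from NADH to quinone, had no listed position within 2000 bp at either age. The nearest listed position to Ndufv1, the subunit that binds NADH, was 84139 bp off at P28 and 12175 bp off at P28.5.

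Among the assembly factors of complex I, Ndufaf3, Ndufaf7 and Ndufaf8 were listed at both ages. Ndufaf7, a methyltransferase, had rows at its 5′ ends 78937106 and 78937135 on chromosome 17. Ndufaf8, which stabilizes Ndufaf5, had 1 row at its 5′ end, 120098934 on chromosome 11. Ndufaf3, which acts early in building the quinone-binding module, had 7 rows, all at 108567496 on chromosome 9, 60 bp upstream of its 5′ end. Ndufaf5, a hydroxylase of Ndufs7, was listed at P28 only, with 3 rows at 140170631 and 1 at 140170646 on chromosome 2, both 5′ ends. Ndufaf4, the partner of Ndufaf3, was listed at P28.5 only, at its 5′ end 24898083 on chromosome 4. Ndufaf3 and Ndufaf4 therefore coincided in the P28.5 list only, and Ndufaf5 and Ndufaf8 in the P28 list only. Ndufaf1, Ndufaf2 and Ndufaf6 had no row.

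Complex II, succinate dehydrogenase, had 2 of 8 genes listed, the same 2 at each age (25%, 7.15% to 59.1%). Sdhb, the iron-sulfur subunit, had positions 140961271, its 5′ end, and 140961294, 23 bp inside, on chromosome 4. Sdhaf3, which helps to mature the iron-sulfur clusters of Sdhb, had 1 row at the 5′ end 6956018 on chromosome 6. A subunit and its maturation factor were thus listed together at both ages, and they are the 2 plus-strand genes of complex II. Another such pair was not. By position, under the names of neighbours, Sdha was listed at P28 only and its flavin factor Sdhaf2 at P28.5 only. Sdha, the flavoprotein that oxidizes succinate, and the membrane anchors Sdhc and Sdhd had no row of their own.

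Complex III had 3 of 9 genes listed at each age (33.3%, 12.1% to 64.6%), but 1 of them was shared. This was Uqcrq, a small accessory subunit, with positions 136 and 157 bp upstream of its 5′ end, 53430967 and 53430988 on chromosome 11. Cyc1, the cytochrome subunit that hands electrons to cytochrome c, was listed at P28 only, at the 5′ end 76343523 on chromosome 15. The large matrix-facing core proteins Uqcrc1 and Uqcrc2 were both listed at P28.5 only, each at its 5′ end, 108936648 on chromosome 9 and 120635189 on chromosome 7. At P28 the nearest listed positions to them were 22029 and 100505 bp away. Uqcrb was named at P28 only, and its rows lay 54628 and 164561 bp from its 5′ end. Uqcrfs1, the Rieske iron-sulfur protein, had no listed position within 1012854 bp at either age.

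Neither cytochrome c gene had a row (0 of 2, with a Wilson interval up to 65.8%). Somatic Cycs had a position at 50566643 on chromosome 6, 74 bp upstream of its 5′ end, at both ages, named for 5430402O13Rik. The nearest listed position to Cyct, the testis form, was 46055 bp off at P28 and 701040 bp off at P28.5.

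Complex IV, cytochrome c oxidase, had 6 of 26 genes listed at P28 (23.1%, 11% to 42.1%) and 5 at P28.5 (19.2%, 8.51% to 37.9%). Cox4i1, the largest nuclear subunit in its somatic form, was listed at its 5′ end 120668225 on chromosome 8 at both ages, and also at 120668320, another 5′ end, at P28.5. Cox11, a copper chaperone of the catalytic centre, and Cox14, a factor for the early assembly of the mitochondrial subunit, were listed at their 5′ ends at both ages, 90638184 on chromosome 11 and 99725618 on chromosome 15. These 3 genes had a row at a 5′ end in each list.

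The other complex IV genes were listed at 1 age. At P28.5, Cox5a was listed at 57521232 on chromosome 9, a 5′ end inside the gene, and Cox6b2 at 4753226 on chromosome 7, 132 bp upstream of its 5′ end. At P28, Cox7a2 was listed at 79760276 on chromosome 9, 423 bp upstream of a 5′ end. Cox6c and Cox7a2l, a factor of respiratory supercomplexes, were also named at P28, at 22262 and 12416 bp from their 5′ ends. Cox10, Cox16, Cox17, Cox18 and Cox19, which serve heme synthesis, copper delivery and membrane insertion, had no row and no listed position within 2000 bp.

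Cox6b2 was the only tissue isoform in either list. The 9 isoforms of testis, muscle, lung or hypoxia were Cyct, Cox6b2, Cox7b2, Cox8c, Cox6a2, Cox7a1, Cox8b, Cox4i2 and Ndufa4l2, of which the P28 list named 0 and the P28.5 list 1. Of the 4 testis forms, Cyct, Cox7b2 and Cox8c had no listed position within 2000 bp at either age. The 3 X-linked members, Ndufa1, Ndufb11 and Cox7b, had none either, and of 963 genes on the X chromosome the P28 list named 0 and the P28.5 list 2.

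Complex V, the ATP synthase, had 7 of 17 genes listed at P28 (41.2%, 21.6% to 64.0%) and 3 at P28.5 (17.6%, 6.19% to 41.0%). The 3 genes at P28.5 were the catalytic Atp5b, the peripheral stalk subunit Atp5j and the membrane subunit Atp5l, and all 3 were listed at P28 too. Atp5l had 1 position, 44920840 on chromosome 9, 98 bp upstream of its 5′ end. Atp5j had 84834925 and 84834983 on chromosome 16 at both ages, and 84835454 at P28.5 only. The additional P28 genes were Atp5k, a small membrane subunit, 129 bp upstream of its 5′ end at 108434528 on chromosome 5, and Atp5e, Atp5j2 and Atp5o. The rows of the last 3 lay 3026, 7835 and 59565 bp from their own 5′ ends. The larger number at P28 in complex V thus came mostly from rows away from the promoter.

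The same was so of the whole set, as the plot of row positions shows. All 20 genes named at P28.5 had a row within 2000 bp of their own 5′ end, but 10 of the 30 named at P28 had none (33.3%). Over all protein-coding genes named, 18.5% had none at P28 and 1.86% at P28.5. The 14 genes listed at both ages had a row at most 136 bp from their own 5′ end, and the 6 listed at P28.5 only at most 132 bp. For the 16 listed at P28 only the median distance was 4896 bp, and 6 of them had a row within 2000 bp. Those 6 were Ndufb3, Ndufs7, Ndufaf5, Cyc1, Cox7a2 and Atp5k.

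The far rows at P28 were of different kinds. Those of Ndufa2, Ndufb4, Atp5e and Cox7a2l were exactly at the 3′ end of the gene, that of Atp5j2 was 2 bp and that of Ndufab1 was 1229 bp from it, and all 6 genes lie on the minus strand. The 3′ end of a minus-strand gene is its end with the lower coordinate, which in a plus-strand gene is the start. The rows of Ndufb2, Cox6c, Atp5o and Uqcrb were outside the genes, between 22262 and 164561 bp from their 5′ ends. A row at such a distance does not place ARID2 at the promoter of the gene it names, so that for these 10 genes the row named for them counts as a listing by symbol only. Of the 10, Ndufa2 also had a position near its 5′ end under the name of a neighbour.

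**Figure D2:**
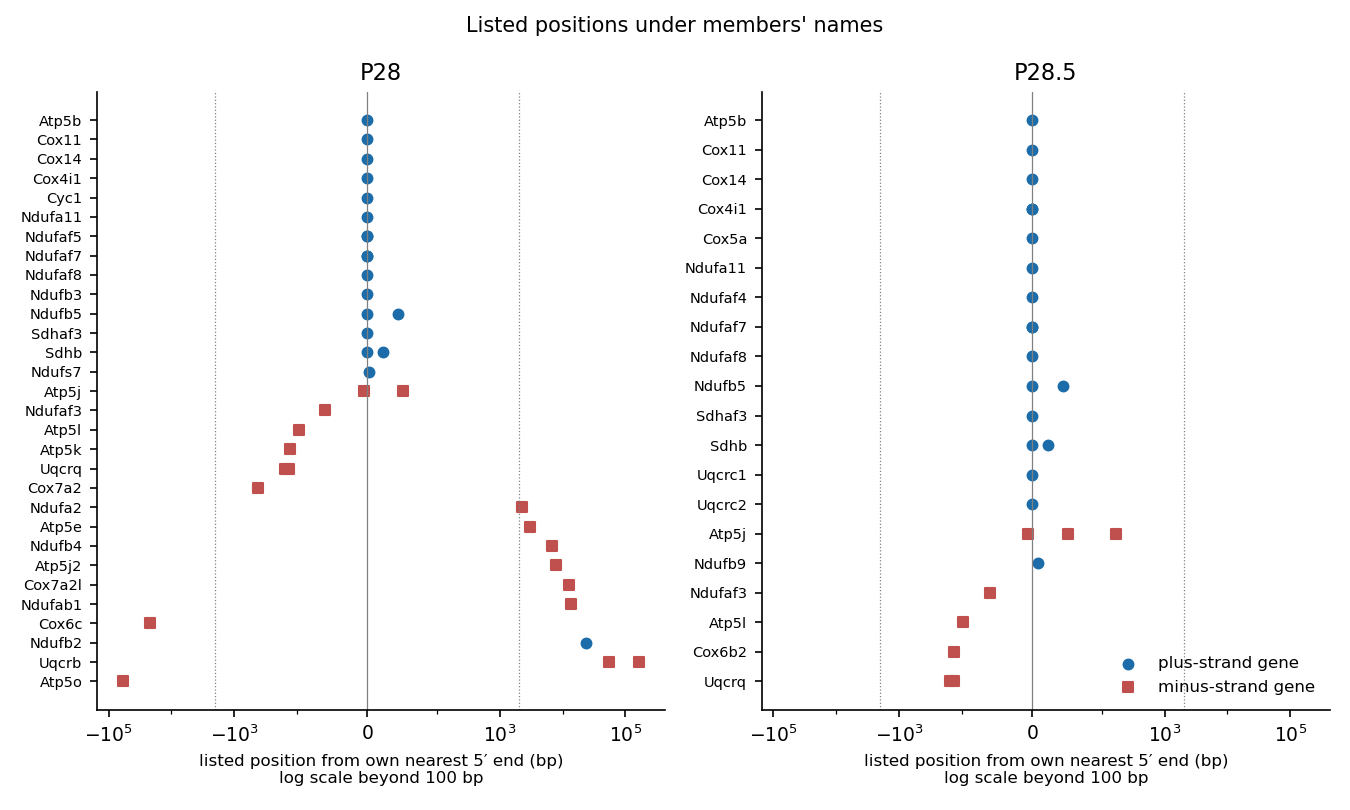
Distance of each row's position from the nearest annotated 5′ end of the gene it is named for (x axis, bp, linear within 100 bp and logarithmic beyond), with dotted lines at 2000 bp on either side and negative values upstream. At P28.5 all 27 positions lay inside the dotted lines, and at P28 the plus-strand genes other than Ndufb2 lay within 44 bp of their 5′ ends while 9 minus-strand genes lay outside the lines.

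Positions on the 2 strands were not listed alike. Of the 111 genes, 75 (67.6%) lie on the minus strand and 36 (32.4%) on the plus strand, against 49.9% of all genes on the plus strand. At P28, 15 of 37 positions named for respiratory genes equalled one of their 5′ ends, and at P28.5 16 of 27, all in plus-strand genes. None of the 18 positions at P28 and the 8 at P28.5 in minus-strand genes did. Of the plus-strand members 15 of 36 (41.7%) were listed at each age, against 26.0% of all plus-strand genes at P28 and 20.4% at P28.5. Of the minus-strand members, 15 of 75 (20.0%) had a row at P28 and 5 (6.67%) at P28.5, against 7.61% and 2.86% of all minus-strand genes. The share listed by name was thus lower on the minus strand, in the members as in all genes.

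A count by position, whatever name the row carried, treats the strands more alike. A listed position lay within 2000 bp of a 5′ end in 35 members at P28 (31.5%, 23.6% to 40.7%), against 17.3% of all genes. At P28.5 it did in 31 (27.9%, 20.4% to 36.9%), against 14.8%, and at both ages in 22 (19.8%), against 10.9%. By position 13 members were listed at P28 only and 9 at P28.5 only. Counted this way, complex I had 15 and 10 genes at P28 and P28.5, complex II 4 and 4, complex III 3 and 4, cytochrome c 1 and 1, complex IV 5 and 6, and complex V 7 and 6. The gap of complex V between the ages, 7 against 3 by name, was 7 against 6 by position.

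By name or position, 53 of the 111 had a listing at either age and 58 had neither. Complex I had 29 of these 58 and complex IV 17, and 43 lie on the minus strand. For complexes I, II, III and V, 18 genes were counted as core subunits. Those of complex III were Cyc1 and Uqcrfs1 only. Uqcrc1 and Uqcrc2, called core proteins above and listed at P28.5 only, were left out. Of the 18, 10 had a position within 2000 bp at P28 (55.6%) and 5 at P28.5 (27.8%), where all genes had 17.3% and 14.8%. By name the 18 had 5 (27.8%) and 2 (11.1%), where all genes had 16.8% and 11.6%. Their share by name at P28.5 was thus near the background, but the P28.5 shares depend on leaving out Uqcrc1 and Uqcrc2. Assembly factors had 9 of 20 at each age by position (45.0%) and 7 of 20 at each age by name (35.0%).

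Several members had a listed position at their promoter only under the name of another gene. There were 15 at P28, of which 14 are minus-strand genes, and 11 at P28.5, all on the minus strand. Eef1b2, a translation elongation factor, gave its name to 63176831 on chromosome 1, 9 bp from the 5′ end of Ndufs1, at both ages. Timm8b, a chaperone of mitochondrial import, gave its name to 50603901 on chromosome 9, 52 bp from the 5′ end of Sdhd, at both ages. Cutc, named for copper handling, was listed at 43753023 on chromosome 19, 23 bp from the 5′ end of Cox15, which makes heme A, at both ages. In each pair the listed position is the 5′ end of the plus-strand partner.

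In complex V, positions named for Kin lay 89 to 103 bp from the 5′ end of Atp5c1, the rotating central shaft, at both ages. A position of Wdr77 lay 235 bp from that of Atp5pb, a stalk subunit, also at both ages. Atp5d, a subunit at the foot of the shaft, was the plus-strand exception, with a row at its own 5′ end 80138768 on chromosome 10 that carried the name of Cbarp, at P28 only. At P28.5 only, a row of Mir688 lay 745 bp from a 5′ end of Atp5g2, a gene for the membrane ring. With these genes, 4 of the 5 subunits of the catalytic head and shaft had a listed position by name or at the promoter, though Atp5e had it at its 3′ end.

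Among the electron-entry complexes, positions of Kbtbd4 lay 19 to 286 bp from the 5′ end of Ndufs3 and a position of Ccdc127 lay 77 bp from that of Sdha, both at P28 only. Phf14 positions lay 248 to 262 bp from Ndufa4, placed with complex I by its symbol though known as a subunit of complex IV, at both ages, and an Ik position lay 69 bp from Ndufa2 at both ages, although Ndufa2 itself was named only at P28 and at its 3′ end. Positions of Asb15, Morn5 and Ercc8 lay 454, 135 and 60 bp from Ndufa5, Ndufa8 and the late assembly factor Ndufaf2 at P28 only. Positions of Cpsf7 lay 35 to 305 bp from Sdhaf2, the factor that attaches flavin to Sdha, at P28.5 only. In complex III, positions of Zmat5 lay 262 and 334 bp from Uqcr10 at P28 only, and a position of Lrrc41 lay 199 bp from Uqcrh at P28.5 only.

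**Figure D3:**
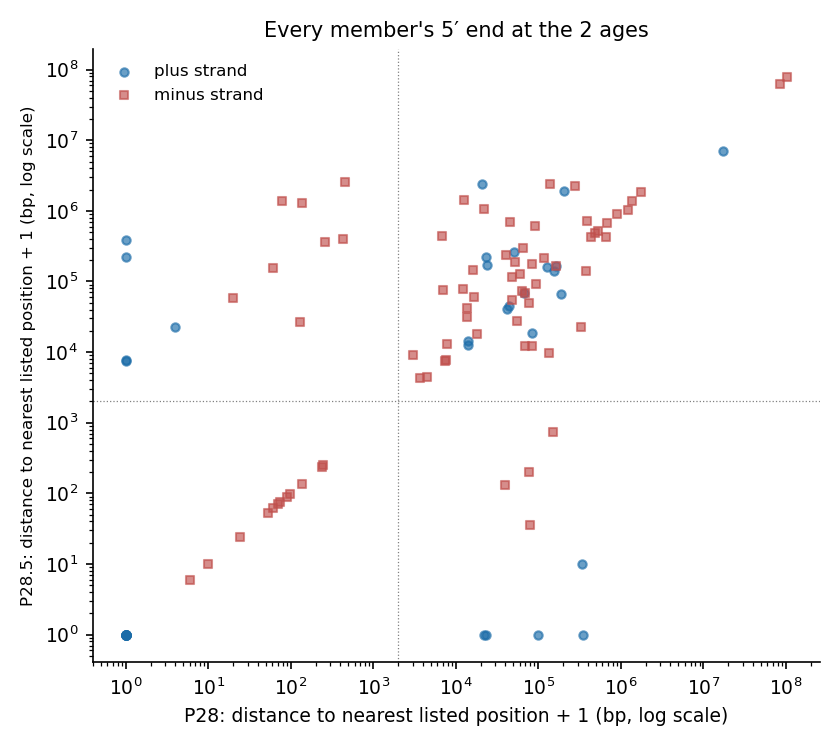
Distance from each member's 5′ ends to the nearest listed position, whatever its name, at P28 (x axis) and P28.5 (y axis), in bp plus 1 on log scales, with dotted lines at 2000 bp. The 22 members near a position at both ages sit at the lower left, the 13 at P28 only at the upper left, the 9 at P28.5 only at the lower right and the other 67 at the upper right.

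Shared promoters were common in the set. A gene on the other strand starting within 1000 bp upstream, or overlapping by up to 200 bp, was annotated for 44 of 111 members (39.6%) and for 15.9% of all genes. Of these 44, 28 (63.6%) had a listed position within 2000 bp at P28 and 21 (47.7%) at P28.5, against 45.0% and 44.5% of all genes with such a partner. Of the 67 members without a partner, 7 (10.4%) had one at P28 and 10 (14.9%) at P28.5, against 12.0% and 9.15% of all such genes. Members without a partner thus had a share near the background at P28 and above it at P28.5. For members with a partner it was the reverse, above it at P28 and nearer to it at P28.5. The part of shared promoters in the higher share of the whole set was not tested.

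Several members listed under their own name also had a neighbour's start at the listed position. The position of Cox11 is 48 bp from a 5′ end of Stxbp4, that of Ndufa11 is 63 bp from Vmac, that of Ndufaf8 is 54 bp from Tepsin and that of Ndufb3 is 64 bp from Fam126b. The position of Ndufaf3 is the 5′ end of Dalrd3, and position 84834925 of Atp5j is that of Gabpa. The Atp5j and Gabpa pair is not among the 44 counted above, since that count used the outermost 5′ end of each gene, and Gabpa starts near inner start sites of Atp5j. For such pairs the lists do not say which of the partners the enrichment belongs to.

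Gabpa encodes the DNA-binding subunit of GABP, an ETS factor known for driving many nuclear respiratory genes. Another position at the shared promoter, 84835124, was listed under the name of Gabpa at both ages, 102 bp from a 5′ end of Atp5j. The stretch that holds Atp5j start sites and the Gabpa start therefore had 3 listed positions at P28 and 4 at P28.5.

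By CpG content, most listings by position fell in the upper 2 quintiles. In the highest quintile 13 of 29 members had a listed position within 2000 bp at P28 (44.8%) and 15 at P28.5 (51.7%), against 32.6% and 34.3% of all genes. In the next quintile it was 20 of 51 (39.2%) and 14 (27.5%), against 28.52% and 25.2%. Of the 23 members in the middle quintile 1 had one at each age (4.35%), against 13.0% and 8.77%. The 2 lowest quintiles held 8 members, too few to read a gradient from, with 1 listed at each age. The median CpG ratio was 0.780 in the 14 genes listed by name at both ages, 0.733 at P28 only, 0.689 at P28.5 only and 0.701 at neither age, so that unlisted members were CpG-rich too.

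**Figure D4:**
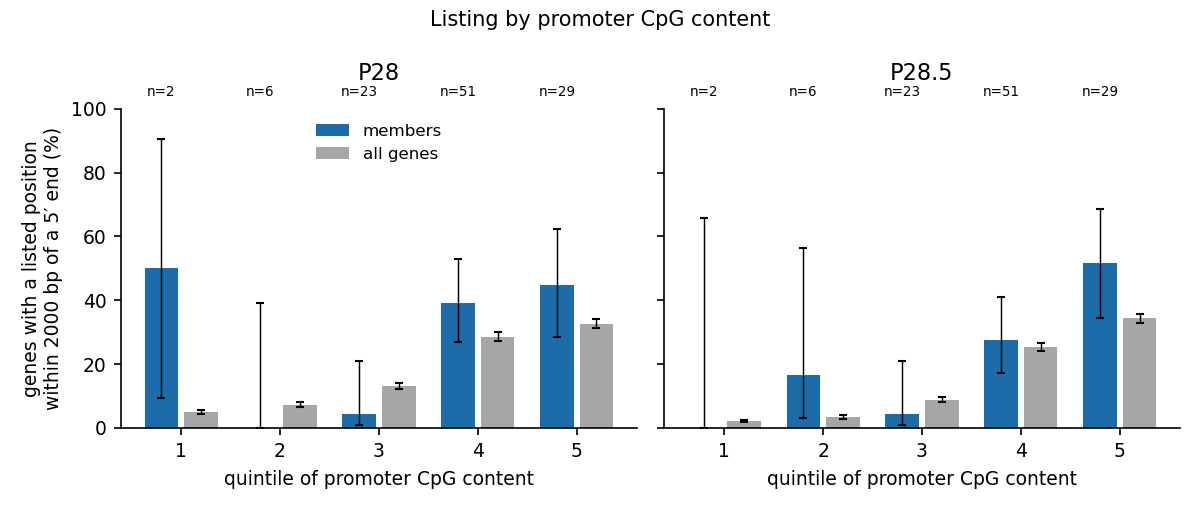
Share of genes with a listed position at most 2000 bp from a 5′ end (y axis, %) in each quintile of promoter CpG content (x axis, 5 is the highest), for the members (blue, n above the bars) and all protein-coding genes (grey), with 95% Wilson intervals. In the 2 upper quintiles, which hold 80 of the 111 members, the member bars are above the grey bars at both ages, with intervals that overlap.

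The motifs searched are those of NRF1, ETS factors, YY1 and Sp1-type factors, all known at respiratory gene promoters, and the TATA box TATAAA. RefSeq windows were given for 90 of the members, with 96 windows, and for 17492 genes in all, with 21263 windows. Each motif was counted on both strands. The NRF1 core was present in 13 member windows (13.5%) and 3.52% of all windows. The ETS core was present in 27 (28.1%) against 11.6%, the YY1 motif in 12 (12.5%) against 3.05%, the GC box in 46 (47.9%) against 46.2%, and the TATA box in 11 (11.5%) against 12.6%. The GC box and the TATA box were thus about as frequent in the members as in all genes.

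Split by a listed position within 2000 bp at either age, the member windows differed in the NRF1 core. It was in 10 of 41 windows with a listed position (24.4%) and in 3 of the other 55 (5.45%), against 6.92% and 2.48% over all genes. The 10 were those of Atp5g2, Atp5k, Atp5l, Cycs, Ndufa11, Ndufa8, Ndufaf4, Ndufaf5, Sdhb and Uqcrc1, and the others were Cox6a1, Ndufa6 and Uqcr11. The ETS core was in 29.3% and 27.3% of member windows with and without a listed position, the YY1 motif in 9.76% and 14.5%, the GC box in 53.7% and 43.6%, and the TATA box in 7.32% and 14.5%. Over all genes the ETS core was in 19.6% and 9.09%, and the GC box in 63.6% and 40.9%. Windows were given for 37 of the 44 members with a listed position. The split was not matched for CpG content. A match is a run of letters and not a bound site, and these shares were not tested.

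**Figure D5:**
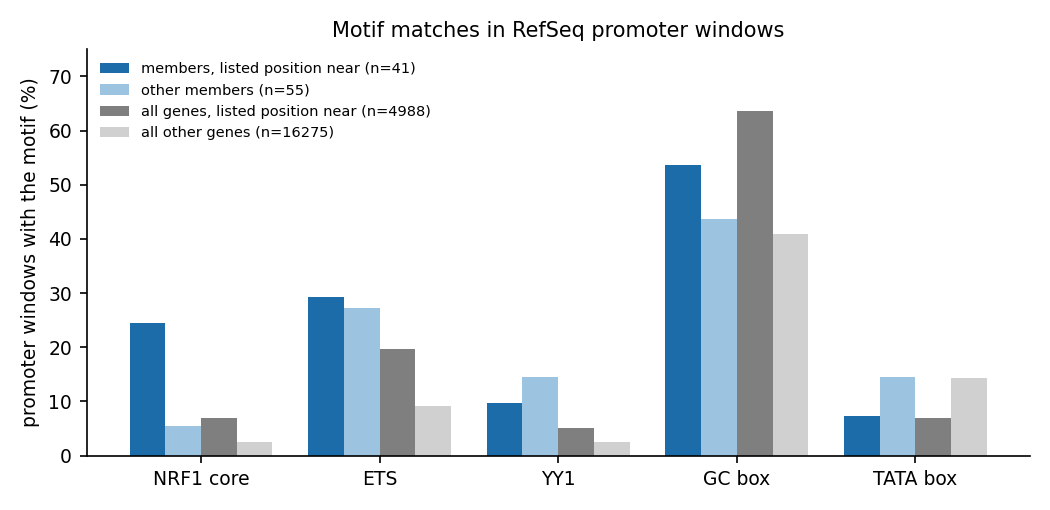
Share of RefSeq promoter windows that hold each motif on either strand (y axis, %) for members with and without a listed position at most 2000 bp from a 5′ end (blue) and for all protein-coding genes in the same way (grey), with n counting windows. The NRF1 core stands at 24.4% in member windows with a listed position and at 5.45% in the other member windows.

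Genes of the same pathway outside the symbol rule were counted in the same way. Of 36 other assembly factors and partners, 10 were listed by name at P28 (27.8%, all genes 16.8%) and 8 at P28.5 (22.2%, all genes 11.6%). Bcs1l, which inserts the Rieske protein into complex III, the complex IV factors Coa4, Coa6, Coa7, Higd2a and Pet100, and the complex I factor Tmem126b were listed at both ages. Nubpl, Pet117 and Timmdc1 were listed at P28 only, and Atpaf1, which assembles the catalytic head of complex V, at P28.5 only. The nearest row of Timmdc1 lay 2280 bp from its 5′ end, so that it counts as a listing by symbol only. Of 13 enzymes of the tricarboxylic acid cycle, which supplies the electrons, 5 had a row at P28 (38.5%) and 7 did at P28.5 (53.8%). The shares of all genes are the same 16.8% and 11.6%. Every enzyme with a row lies on the plus strand, and no minus-strand enzyme had one. All plus-strand genes had 26.0% and 20.4%, but the 38.5% and 53.8% count enzymes of both strands. Among plus-strand enzymes alone the shares are therefore higher than these. Those listed at both ages included Dlst, Mdh2 and Ogdh. Suclg1 was listed at P28 only, and Cs, Idh3a and Sucla2 at P28.5 only.

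Of 13 regulators of nuclear respiratory genes, 3 were listed by name at P28 (23.1%), Gabpa, Gabpb1 and Tfb2m. With 13 genes this is near the 16.8% of all genes. At P28.5, 5 were listed by name (38.5%, all genes 11.6%), Gabpa, Tfb2m, Yy1, Esrra and Pprc1. Counted by a position within 2000 bp, whatever its name, the shares were higher. They were 5 of 13 at P28 (38.5%, all genes 17.3%) and 7 of 13 at P28.5 (53.8%, all genes 14.8%). The factor genes whose motifs are counted above differed among themselves. Gabpa was listed at its 5′ end at both ages and Yy1 14 bp from its 5′ end at P28.5 only. Nrf1 had no row, and the nearest listed position was 130972 bp from its 5′ end at each age. Tfam, the packaging and transcription factor of mitochondrial DNA, was not listed either, with the nearest position 56878 bp away at P28 and 638266 bp at P28.5.

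The genes of the mitochondrial ribosome, which makes the subunits encoded in mitochondrial DNA, had shares near those of the respiratory genes. Of 78, 22 (28.2%, 19.4% to 39.0%) were listed by name at P28 and 17 (21.8%, 14.1% to 32.2%) at P28.5, against 27.0% and 18% of the respiratory genes. Cytosolic ribosomal protein genes had 28 of 84 (33.3%, 24.2% to 43.9%) at P28 and 33 (39.3%, 29.5% to 50.0%) at P28.5. At P28.5 the intervals of the cytosolic ribosomal and the respiratory genes did not overlap. At P28 they did, and neither difference was tested. The sets were not matched for strand or CpG content, and the share listed differs between the strands, both by name and by position. By position the shares at P28.5 were 27.9% of the respiratory, 33.3% of the mitochondrial ribosomal and 47.6% of the cytosolic ribosomal genes.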

How the data were processed

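ARID2 CUT&RUN reads were trimmed with TrimGalore, aligned to mm10 with Bowtie2 and written as BAM files with samtools by the authors. Coverage was made with deepTools without blocklisted regions or duplicates, scaled with csaw, expressed as a log2 ratio to the library without primary antibody, averaged over replicates with WiggleTools and clustered by k-means around RefSeq TSSs. The deposited lists give positions and symbols of Cl-1, not counts, signal or other values, so no depth or replicate check could be had from them, and samples were grouped by age alone as the labels give it. No model or p-value was computed.

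Symbols were matched to RefSeq GRCm38.p6 as written or by a synonym of 1 gene, for 4085 of 4095 names at P28 and 2702 of 2707 at P28.5. A gene was listed when a row carried its symbol. Positions were compared with all annotated 5′ ends. Alternatives were matching by symbol as written or by position within 2000, 500 or 10 bp, plus-strand genes only, and members without assembly factors or tissue isoforms. Counting older symbols was added after seeing the data. CpG content was taken 500 bp either side of the outermost 5′ end. Shares have 95% Wilson intervals, which cover counting only. Every member listed by name is named, and unlisted ones where they are core subunits or tissue isoforms. Some genes that this rule or the pathway lists name are not reported here by name. Other names were chosen after their values were seen. The members, the lists and the way of counting were chosen with earlier results of these data known. The search for the nearest position was checked on a simulated list and the Wilson interval on simulated counts. The matching by name was not checked in this way. Python 3.11.15, pandas 2.3.3, numpy 2.4.6, statsmodels 0.14.6, pysam 0.24.0 and matplotlib 3.10.9 were used.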

Additional observations from a re-analysis of the deposited data

How the results depend on the processing

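Each alternative left the share of members above that of all genes counted in the same way. This held in 21 of 21 comparisons of the whole set (main counts included). These comparisons recount largely the same genes, and none matched CpG content or shared promoters. The interval at both ages by name, 7.66% to 20.1%, included the 8.48% of all genes. By name, members were below all genes in the highest CpG quintile at P28.5 (24.1% against 27.0%). In the middle quintile they were below at P28 (8.70% against 14.2%) and P28.5 (4.35% against 6.89%). They were above in the next to highest at both ages and in the highest at P28. Some shares moved. At P28 the 27.0% by name became 15.3% with a position within 10 bp of a 5′ end (11.3% of all genes) and 41.7% among plus-strand genes. At P28.5 the 18% became 27.9% within 2000 bp, 27.0% within 500 bp (14.3% of all genes) and 41.7% among plus-strand genes. At both ages the 12.6% became 27.8% among plus-strand genes (14.8% of all). Among plus-strand genes complex I had 44.4% at P28 and 33.3% at P28.5, complex II 100% at each age (2 of 2 genes), complex III 66.7% and complex IV 40.0% at P28.5. The cause of these shifts was not tested. By position within 2000 bp, complexes with few genes moved too: cytochrome c from 0% to 50.0% (1 of 2 genes) and complex II from 25% to 50.0% at each age, and complex V from 17.6% to 35.3% at P28.5. Complex I at P28.5 went from 14.3% to 7.32% without assembly factors. Cytochrome c has no plus-strand gene and so no value there. No replicate could be left out, since each list was made from averaged libraries.

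No paired analysis was possible because each age has 1 list made from averaged replicates, with no column per replicate.

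The lists limit every count. They give no depth, so that ARID2 below what the clustering separated could not be seen. They name few minus-strand starts, although 75 members lie on that strand. With 2 to 9 genes in cytochrome c and complexes II and III, shares there have wide intervals.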

Other observations

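Some genes lie at the edge of the symbol rule. Dmac2l, known before as Atp5s, had 7 rows in the list of each age, and Dmac2, known before as Atp5sl, had 2 rows in each. Emc8, known before as Cox4nb, had none. With these genes counted among the respiratory genes, an alternative added after seeing the data, 32 of 114 (28.1%) were listed at P28 and 22 of 114 (19.3%) at P28.5.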
